A study of Mus musculus with 15 samples.

Results

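Cells that carry green fluorescent protein under the Pou5f1 (OCT4) promoter were sorted from testes of wild-type (WT) mice at 7 days post partum (dpp) and at 2 to 3 months, and their transcripts were compared between these ages. The comparison used 4 of the 15 libraries of the series, which are WT libraries 2 and 3 at 7 dpp and WT libraries 7 and 9 of adults. The spread of each gene was estimated over all 15 libraries, which include Akt1s1 null libraries and, in both genotypes, libraries at 3 dpp. Of the 27128 gene names in the files, 16232 were tested. These had a signal of 1 or more in at least 2 of the 4 libraries. Just inside this rule were Kcnd2 (0.351, 0.493, 1.001 and 1.077 in libraries 2, 3, 7 and 9) and Eomes (0.321, 0.74, 1.001 and 1.205), and just outside were Kdr (1.264, 0.997, 0.65 and 0.365) and Rtp4 (0.231, 0.139, 2.327 and 0.995). A gene that is high only in adults enters through the adult libraries alone, so counts of changed genes in lists of late germ cell genes describe those lists and are not evidence of a change by themselves.

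In the mouse testis, spermatogonia divide on the basement membrane of the tubule, first as an undifferentiated pool that holds the stem cells and then, after a pulse of retinoic acid, as KIT-expressing differentiating spermatogonia. Their descendants pass through meiosis as spermatocytes, become round spermatids and finally elongate, replacing histones first with transition proteins and then with protamines. The first wave of this process has made differentiating spermatogonia but no spermatids in the week-old testis, whereas the adult testis holds every stage beside Sertoli cells, Leydig cells and macrophages. Pou5f1 is a pluripotency factor that remains active in undifferentiated spermatogonia, which is why its promoter is used to mark them.

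Both WT groups carried the Pou5f1-Gfp transgene, and so did the libraries from Akt1s1 null mice (KO, 3 libraries at 7 dpp and 3 of adults) whose age change is set beside that of WT below. Akt1s1 encodes PRAS40, an inhibitor of the mTORC1 kinase complex, and its signal was 54.5 and 72.9 at 7 dpp and 67.9 and 67.1 in adults in WT, against 37.2 to 39.8 and 43.1 to 47.4 in the libraries labelled null. The transcript was thus lower but still present in them; which part of the gene the allele removes is not given in the sources used here, so this signal does not check the label. The labels describe the sorted cells as primary spermatogonia, taken after digestion with collagenase, DNase I and trypsin, and do not state whether replicate libraries stem from different mice; the p-values thus cover library-to-library spread, part or all of which can be technical. The deposited signal behaves as TPM, a transcript abundance corrected for length, times 1 factor per library, and the depth is unknown. Column totals ran from 902132 to 1072020 in the 4 libraries, 14683 to 16312 genes had a signal of 1 or more, and 4.23% to 6.71% of each total came from its 10 most abundant genes. Across genes, the log2 values of libraries 2 and 3 correlated with Pearson r = 0.985, as did those of libraries 7 and 9, against 0.877 to 0.918 between ages.

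Germ cell markers were high at both ages, and the adult libraries added transcripts of spermatids, Leydig cells and macrophages. Ddx4, an RNA helicase of germ cells, had a signal of 509 and 503 at 7 dpp and 333 and 382 in adults, and Dazl, a germ cell RNA-binding protein, 1418 and 1417 against 974 and 1050.2. The 26 elongating spermatid genes in the files summed to 110.3 and 126.3 at 7 dpp and to 14978 and 6956 in adults, or 0.011%, 0.0118%, 1.66% and 0.762% of the column totals. The adult libraries thus hold transcripts that spermatogonia lack, and the material is called sorted cells here. In a sorted population, fewer cells of a type and less RNA per cell cannot be told apart.

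**Figure D1:**
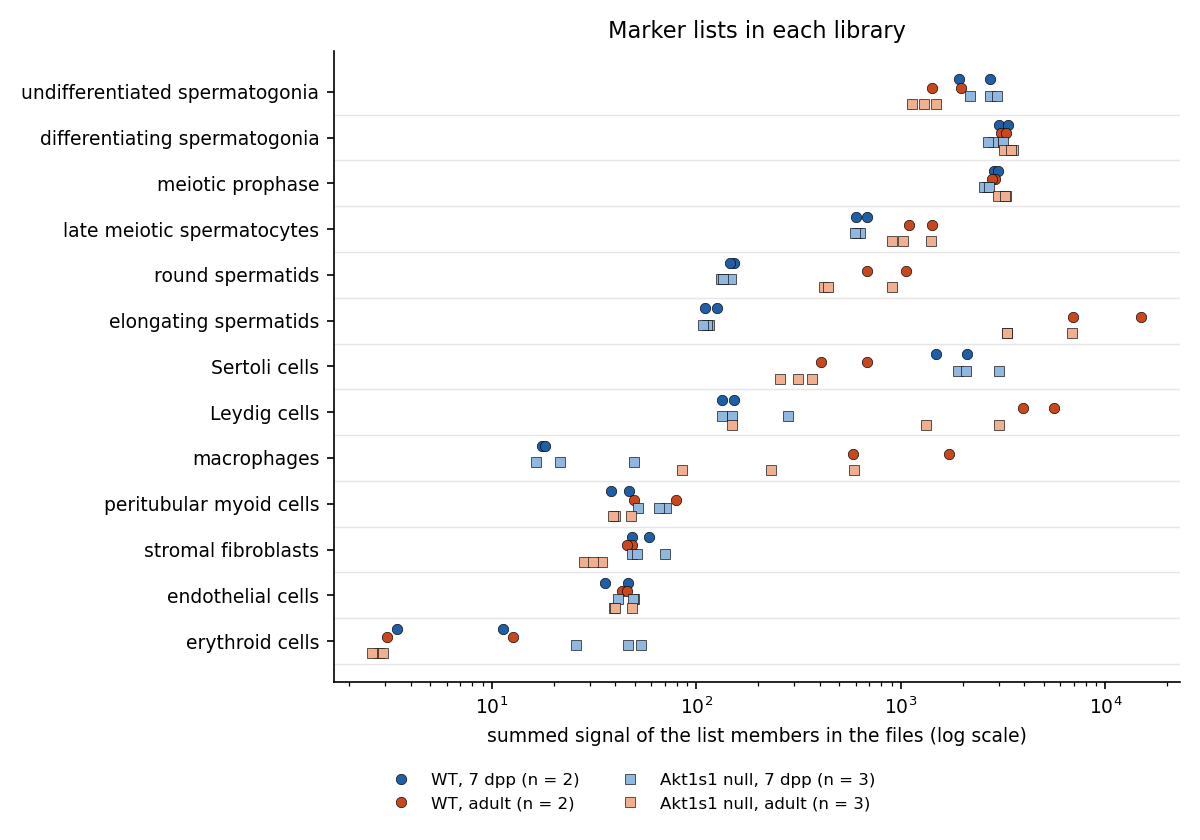
Summed signal of the marker genes of each cell type (rows) on a log axis, 1 point per library, circles for WT and squares for Akt1s1 null, blue for 7 dpp and orange for adults. Elongating spermatid markers lie between 107.2 and 126.3 in every 7 dpp library shown and between 3306 and 14978 in every adult library.

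Between 7 dpp and adulthood, 3127 genes (19.3% of those tested) were higher in adult WT and 2211 (13.6%) were lower (limma on log2(signal + 1), Benjamini-Hochberg adjusted p under 0.05). In all, 5338 genes (32.9%) passed. Large changes were mostly increases: 1839 genes (11.3%) rose at least 2-fold and 358 (2.21%) fell at least 2-fold. The median change of all genes tested was 0.035 on the log2 scale. The split depends on the scaling. With each column rescaled to the same total the median moved to 0.208 and the calls to 4504 higher and 1175 lower, and with quantile normalization the median moved to -0.112 and the calls to 2441 higher and 3601 lower. Small shifts shared by many genes, as in the ribosomal protein and metabolic lists below, are therefore given with the list's median under both scalings. Without adult library 7 the calls were 1707 higher and 917 lower, and without 7 dpp library 3 they were 2334 and 1355. With 2 libraries in each group an exact permutation test of a single gene cannot go below p = 0.333, so every p-value here borrows the spread of the other genes and groups through the limma fit.

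**Figure D2:**
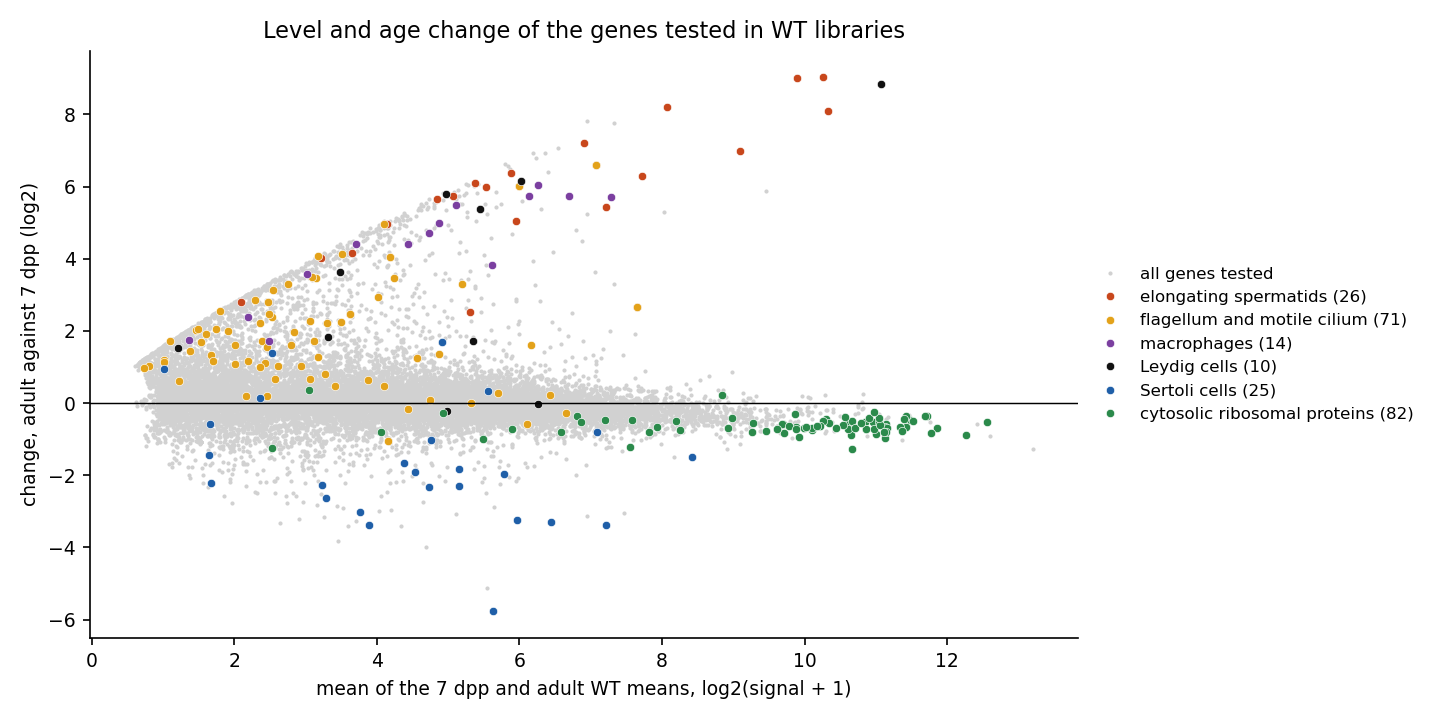
Mean level (x axis, log2(signal + 1)) against the change from 7 dpp to adult (y axis, log2) for the 16232 genes tested in WT libraries, with 6 gene lists coloured. Elongating spermatid, macrophage and most flagellum genes lie above 0, most Sertoli cell genes below it, and ribosomal protein genes form a band under 0 at the right.

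The transcripts that rose most were those of elongating spermatids. Prm2, 1 of the 2 protamines that pack sperm DNA, had a signal of 4.08 and 2.74 at 7 dpp and 3306 and 1564 in adults, a log2 change of 9.03 ± 0.46 (standard error, SE; adjusted p = 2.42e-07). Its partner Prm1 went from 8.09 and 7.05 to 3564 and 1553 (8.10 ± 0.54, adjusted p = 5.71e-07). The transition proteins precede the protamines on spermatid chromatin. Tnp2 went from 4.05 and 1.26 to 2653 and 1141 (9.01 ± 0.52, adjusted p = 2.5e-07), and Tnp1 from 3.18 and 13.4 to 1509.8 and 644 (6.99 ± 0.68, adjusted p = 1.03e-05). Adult library 7 was about 2 times as high as library 9 in each of these genes, and both lay far above both 7 dpp libraries. Smcp, which coats sperm mitochondria, rose from 1.22 and 0.364 to 704 and 368 (8.19 ± 0.44), and Gsg1, a germ cell membrane protein, from 0.893 and 0.193 to 323 and 152 (7.21 ± 0.39). Of the 27 elongating spermatid genes listed, 26 were in the files and tested, and these 26 rose, against 19.3% of all genes tested. Their median log2 change was 5.70, and 5.208 to 6.195 without any 1 of the 4 libraries. The median ratio of adult library 7 to library 9 over these genes was 2.007.

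Other genes among the 15 largest increases were Crisp2 (224 and 145 in adults), a sperm head and tail protein, Odf1 (348 and 181), a protein of the outer dense fibres of the tail, and Spz1 (194 and 101), a spermatid transcription factor. Hmgb4, a chromatin protein of male germ cells, was listed at 0 in both 7 dpp libraries and had a signal of 156 and 61 in adults. Plaat5 (144 and 85.1) and Iqcf3 (149.5 and 74.4) belonged to the same 15. Each of these genes was under 2 in both 7 dpp libraries.

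Many spermatid genes are driven by CREM, a testis activator that binds cAMP response elements close to their starts. The 200 bases before the start of each list member were therefore searched on either strand for TGACNTCA, a form of this element in which N is any base. The matches are printed in capitals, 5′ to 3′ on the gene's own strand (RefSeq sequence, GRCm38.p6), for the 5 elongating spermatid genes with a match whose increase was largest and, for contrast, for the 2 protamine and transition protein genes without one.
Prm1 (chr16:10796824-10797023, minus strand): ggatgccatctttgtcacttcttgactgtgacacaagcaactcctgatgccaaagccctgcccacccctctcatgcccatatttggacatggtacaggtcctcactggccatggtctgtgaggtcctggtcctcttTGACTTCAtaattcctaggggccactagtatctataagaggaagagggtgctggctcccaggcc
Gsg1 (chr6:135254337-135254536, minus strand): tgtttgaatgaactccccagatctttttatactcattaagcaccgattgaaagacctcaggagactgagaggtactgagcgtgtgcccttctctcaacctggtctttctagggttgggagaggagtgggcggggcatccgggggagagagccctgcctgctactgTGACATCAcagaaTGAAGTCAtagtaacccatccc
Tnp1 (chr1:73015900-73016099, minus strand): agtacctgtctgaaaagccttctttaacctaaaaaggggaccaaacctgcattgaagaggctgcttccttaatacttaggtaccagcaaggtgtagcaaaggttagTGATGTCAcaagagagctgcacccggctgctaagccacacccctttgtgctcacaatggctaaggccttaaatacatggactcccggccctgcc
Spata3 (chr1:86021745-86021944, plus strand): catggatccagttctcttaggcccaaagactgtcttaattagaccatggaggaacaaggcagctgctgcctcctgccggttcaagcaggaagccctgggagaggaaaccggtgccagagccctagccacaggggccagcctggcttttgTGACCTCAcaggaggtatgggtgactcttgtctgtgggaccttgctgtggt
Akap4 (chrX:7067315-7067514, plus strand): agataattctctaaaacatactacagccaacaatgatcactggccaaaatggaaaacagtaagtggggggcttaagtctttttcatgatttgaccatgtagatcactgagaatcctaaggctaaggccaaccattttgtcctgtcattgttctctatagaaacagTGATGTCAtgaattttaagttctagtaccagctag
Prm2 (chr16:10792106-10792305, minus strand; no match): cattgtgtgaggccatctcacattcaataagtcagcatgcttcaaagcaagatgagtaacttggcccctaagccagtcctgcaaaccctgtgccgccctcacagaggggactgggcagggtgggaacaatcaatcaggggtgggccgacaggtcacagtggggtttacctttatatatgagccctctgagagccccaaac
Tnp2 (chr16:10788656-10788855, minus strand; no match): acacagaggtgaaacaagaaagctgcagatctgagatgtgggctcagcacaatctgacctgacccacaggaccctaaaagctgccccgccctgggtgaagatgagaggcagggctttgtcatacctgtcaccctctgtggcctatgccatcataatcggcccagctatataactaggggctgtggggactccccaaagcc

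The match begins 64 bases before the start in Prm1, 94 in Tnp1, 51 in Spata3 and 35 in Akap4, and Gsg1 holds a pair, 35 and 22 bases before its start. A match to TGACNTCA was found in 10 of the 22 elongating spermatid promoters with RefSeq sequence (45.5%). The match was also in 9 of 26 round spermatid promoters (34.6%), among them those of Actl7a, Izumo1, Tssk1 and Tssk2. It was found in 1 of 17 late meiotic promoters (5.88%), in 1 of 17 Sertoli cell promoters (5.88%) and in 1813 of all 27025 promoters of the same length (6.71%). Shares above this were not confined to spermatid lists. They were 2 of 5 peritubular myoid (40.0%), 2 of 9 macrophage (22.2%) and 3 of 20 undifferentiated spermatogonia promoters (15.0%). Meiotic prophase had 1 of 36 (2.78%), and differentiating spermatogonia, Leydig, stromal, endothelial and erythroid promoters had 0. The match is a description of the letters, not a binding site, and its absence from the windows of Prm2 and Tnp2 says only that these letters are not there. Spata3, a spermatogenesis gene, rose from 0.251 and 0.289 to 165 and 65.1 (6.37 ± 0.60), and Akap4, the main anchoring protein of the sperm fibrous sheath, from 0.632 and 0.922 to 175 and 73.3 (6.01 ± 0.43). Crem itself had a signal of 5.88 and 4.16 at 7 dpp and 12.4 and 10.2 in adults (1.04 ± 0.32, adjusted p = 0.0241), and its call was lost without 7 dpp library 3 (adjusted p = 0.149), adult library 7 (0.147) or adult library 9 (0.0541) and with quantile normalization (0.0817).

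Round spermatid genes rose as well, to a lower summed level in adults. Of the 31 in the files, 29 rose (93.5%, against 19.3% of all genes tested), with a median log2 change of 2.73. The median was 2.631 to 2.825 without any 1 of the 4 libraries, with fewer genes higher in each of these fits. The summed signal of the list was 152.2 and 145.5 at 7 dpp and 1058 and 679 in adults. Spata18, which encodes an inducer of mitochondrial quality control, went from 0.241 and 0.214 to 99.9 and 47.4 (5.83 ± 0.36, adjusted p = 4.13e-07). Tssk6, a testis-specific kinase needed for sperm-egg fusion, went from 3.44 and 1.94 to 86.1 and 46.2 (4.15 ± 0.33, adjusted p = 1.83e-06). Actl7a, an actin-like protein of the acrosome, was at 0.12 and 0 at 7 dpp and at 28.2 and 18.2 in adults. In each of these 3 genes both adult libraries lay above both 7 dpp libraries.

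Of 71 tested genes of the flagellum and motile cilium, chosen by name family, 57 rose and 2 fell (19.3% and 13.6% of all genes tested did so), with a median log2 change of 1.61; without 1 library the number that rose was 42 to 47. Odf2, a dense fibre and centrosome protein, was already present at 7 dpp (46.6 and 57.4) and rose to 431 and 261 (2.68 ± 0.24). Akap3, a fibrous sheath protein, rose from 0.973 and 0.965 to 42.8 and 23.7 (4.06 ± 0.38), and Ropn1, another sheath protein, from 0 and 0.075 to 39.6 and 25.2.

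Markers of early spermatogonia changed by less than these. In 14 of the 28 undifferentiated spermatogonia genes tested both adult libraries lay under both 7 dpp libraries, and in 2 both lay above. Over all 16232 genes tested these numbers were 5275 and 6098. Pou5f1 had a signal of 550.3 and 945 at 7 dpp and 250.2 and 433 in adults, so that every adult library was under every 7 dpp library, but with a log2 change of -1.13 ± 0.41 it just missed the threshold (adjusted p = 0.0508). It passed without 7 dpp library 2 (adjusted p = 0.0424) or adult library 9 (0.0394), with a filter at a signal of 5 (0.0458) and with median-ratio scaling (0.0474), and missed by more without 7 dpp library 3 (0.303) or adult library 7 (0.335). Of the 30 undifferentiated spermatogonia genes listed, 28 were tested, 0 rose and 4 fell (14.3%, near the 13.6% of all genes tested), with a median log2 change of -0.37. The number that fell was 1 without adult library 7, 6 without adult library 9, 7 with quantile normalization (median -0.41) and 8 with only the groups compared in the fit; after rescaling 4 fell and 2 rose (median -0.18). Itga6, an integrin subunit used to enrich stem cells, fell from 47.5 and 43 to 21.3 and 22.5 (-1.01 ± 0.19, adjusted p = 0.00127), and it passed without any 1 of the 4 libraries. Epha2, an ephrin receptor, was at 11.5 and 10.4 and then at 3.19 and 3.69 (-1.43 ± 0.36, adjusted p = 0.00839; 0.0611 without adult library 7). The remaining 2 were Nanos2, an RNA-binding protein of the stem cell pool (adjusted p = 0.0273), and Shisa6, a Wnt inhibitor (0.0171), and both missed the threshold without adult library 7 (0.188 and 0.12); Nanos2 also missed it without 7 dpp library 3 (0.219) and Shisa6 without 7 dpp library 2 (0.103).

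Zbtb16, the transcription factor PLZF of undifferentiated spermatogonia, had a signal of 78.5 and 95.7 at 7 dpp and 73.6 and 84.9 in adults, with ranges that overlap (-0.13 ± 0.18, adjusted p = 0.61). Gfra1, the receptor for the stem cell factor GDNF, was at 12.8 and 18.7 and then at 8.01 and 8.43, every adult value under every 7 dpp value, without passing (-0.84 ± 0.58, adjusted p = 0.295). The fit estimates its spread over all libraries, and in KO at 7 dpp Gfra1 ranged from 11.8 to 89.7. Dppa4, a chromatin factor of pluripotent and germ cells, fell from 53.2 and 55.4 to 22.8 and 30.4 (-1.02 ± 0.16, adjusted p = 0.000408).

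The central genes of differentiating spermatogonia, Kit and Stra8, were abundant at both ages, while a few later members of the list rose strongly. Kit, the receptor for stem cell factor, had a signal of 138 and 135 at 7 dpp and 176 and 168 in adults (0.33 ± 0.17, adjusted p = 0.149), and Stra8, the retinoic acid target that licenses meiosis, 727 and 798 against 616 and 658 (-0.26 ± 0.20, adjusted p = 0.352). Of the 12 members, 4 rose and 2 fell (33.3% and 16.7%, against 19.3% and 13.6% of all genes tested). Prss50, a testis protease, went from 5.6 and 4.7 to 94.5 and 46 (3.45 ± 0.43, adjusted p = 7.84e-05), and Esx1, an X-linked homeobox gene, from 24.6 and 17.5 to 112 and 95.4 (2.27 ± 0.29, adjusted p = 0.000112). Dmrtb1, which controls the exit from mitosis into meiosis, rose from 84 and 63.8 to 216 and 206 (1.51 ± 0.31, adjusted p = 0.00258). Rhox13 was the fourth (adjusted p = 0.0202), and its call was lost without 7 dpp library 2 (0.115), adult library 7 (0.122) or adult library 9 (0.0525). Sohlh2, a transcription factor of early differentiation, fell from 185 and 201 to 111 and 123 (-0.72 ± 0.11, adjusted p = 0.000362), and Sohlh1, its partner, fell by 0.44 ± 0.10 (adjusted p = 0.00339; 0.0595 without adult library 7, 0.0996 with quantile normalization).

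**Figure D3:**
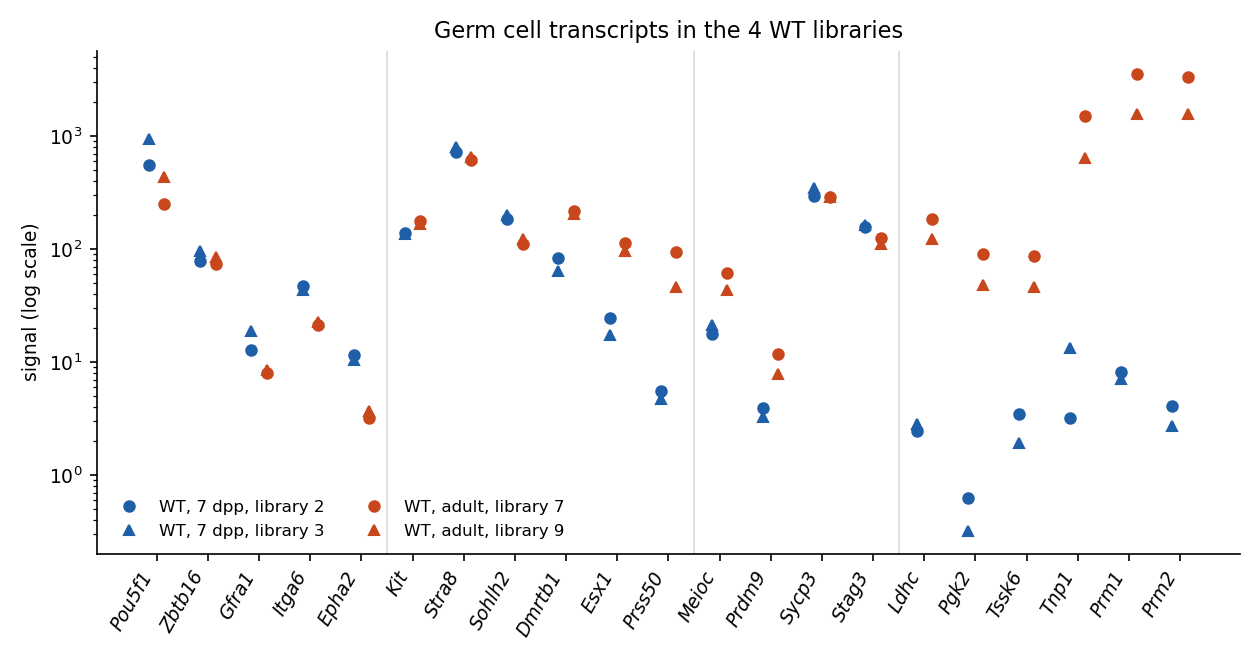
Signal of 21 germ cell genes (x axis) in each of the 4 WT libraries on a log axis; vertical lines part undifferentiated, differentiating, meiotic and later genes. The 2 ages lie close together for Zbtb16, Stra8 and Sycp3 and are parted by more than 1 log10 unit for Ldhc, Pgk2, Tssk6, Tnp1, Prm1 and Prm2.

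Signalling lists around the spermatogonia held few changes. Of 29 genes of GDNF and FGF signalling 3 rose and 4 fell, of 23 of KIT signalling 2 rose and 2 fell, and of 21 of the retinoic acid pathway 3 rose and 1 fell, each near or under the shares of all genes tested in the fit as reported. The ligands that fell are made by Sertoli cells: Gdnf went from 4.31 and 2.87 to 0.794 and 0.584 (-1.43 ± 0.32, adjusted p = 0.00443), and Kitl, the KIT ligand, from 19.8 and 11.8 to 1.95 and 1.38 (-2.62 ± 0.39, adjusted p = 0.000291). Nrtn, which encodes the GDNF relative neurturin, rose from 22.3 and 24.2 to 44.8 and 50.5 (1.00 ± 0.23, adjusted p = 0.0052). Stra6, the retinol transporter, fell from 11.8 and 8.74 to 1.3 and 0.539 (-2.57 ± 0.55), and Dhrs3, a retinal reductase, rose from 1.31 and 0.911 to 12.9 and 5.59 (2.18 ± 0.40). The other gene counted as lower in the KIT list, Pdk1, encodes a mitochondrial kinase that restrains pyruvate oxidation and is no KIT signalling gene; it fell from 48.3 and 51.2 to 19.7 and 24.3 (-1.15 ± 0.24). Without 7 dpp library 2 the members that rose numbered 1, 0 and 1 in these lists, without adult library 7 they numbered 1, 1 and 1, and after rescaling 6, 9 and 4.

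Genes of meiotic prophase were expressed at 7 dpp almost as in adults. Their summed signal was 2847 and 2968 at 7 dpp and 2874 and 2800.0 in adults. Of 44 tested, 8 rose and 3 fell (18.2% and 6.82%, against 19.3% and 13.6% of all genes tested). The share that rose was thus near that of all genes. The median log2 change was 0.018. It was -0.012 to 0.042 without any 1 of the 4 libraries, with fewer genes called in each of these fits. Rescaling gave 14 higher and 1 lower, and quantile normalization 5 and 5. Sycp3, of the axial element of meiotic chromosomes, had a signal of 297 and 348 at 7 dpp and 289 and 287 in adults, and Sycp1, of the synaptonemal complex, 187 and 189.7 against 187 and 169. Dmc1, the meiotic recombinase, had 38.9 and 35.4 against 41.3 and 37.3 (0.08 ± 0.13, adjusted p = 0.69). These 3 genes did not pass. Meioc, which stabilises the meiotic programme, rose from 17.7 and 21.3 to 61.3 and 43.0 (1.36 ± 0.24, adjusted p = 0.00106), also without any 1 library. Prdm9, the methyltransferase that places recombination hotspots, rose from 3.91 and 3.28 to 11.7 and 7.83 (1.21 ± 0.30, adjusted p = 0.00776), a call lost without 7 dpp library 3 (0.0528) or adult library 7 (0.0941) and with quantile normalization (0.0635). Stag3, a meiotic cohesin subunit, fell from 156 and 165 to 126 and 109.9 (-0.44 ± 0.09, adjusted p = 0.00292).

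Several later meiotic genes rose steeply. Of 21 tested, 10 rose and 1 fell (47.6% and 4.76%, against 19.3% and 13.6% of all genes tested), with a median log2 change of 0.86. The median was 0.74 to 1.14 without any 1 library. Ldhc, the sperm isoform of lactate dehydrogenase, went from 2.47 and 2.85 to 185 and 122 (5.37 ± 0.42, adjusted p = 1.72e-06). Adam3, a sperm surface protein, went from 0.151 and 0.043 to 58.7 and 32.4 (5.35 ± 0.41), and Tcp11, a sperm motility protein, from 5.46 and 7.58 to 267 and 158 (4.79 ± 0.45). Hspa2, the chaperone of pachytene spermatocytes, rose from 25.7 and 20.6 to 79.3 and 70.5 (1.66 ± 0.23, adjusted p = 0.000188). The ratio of adult library 7 to 9 had a median of 1.25 over this list, 1.107 over meiotic prophase genes and 0.789 over undifferentiated spermatogonia genes.

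Male germ cells replace several widely expressed proteins with copies of their own, often because the widely expressed gene is X-linked and silenced in meiosis. A fixed list of pairs was examined, and whether each copy called germline here is confined to germ cells was not tested. In the 27 pairs that could be tested, 13 germline copies rose and 7 fell, while 0 of the relatives called widely expressed rose and 12 fell. The median log2 changes were 0.821 and -0.375 (limma, with 19.3% higher and 13.6% lower among all genes). After rescaling 15 germline copies and 2 relatives rose, and 6 and 9 fell. In 6 pairs the germline copy rose and its relative fell. Pgk2, the germline phosphoglycerate kinase, rose from 0.632 and 0.322 to 90.8 and 48.2 (5.52 ± 0.39, adjusted p = 8.87e-07), whereas X-linked Pgk1 was at 37.9 and 35.01 and then at 36.4 and 35.8 (-0.01 ± 0.09, adjusted p = 0.932). Gapdhs, the sperm form of the glycolytic dehydrogenase, rose from 4.57 and 6.04 to 392 and 186 (5.44 ± 0.36), and Gapdh fell from 2231 and 2497 to 1395 and 1457 (-0.73 ± 0.15, adjusted p = 0.00222). Hspa1l, a spermatid chaperone, rose from 3.39 and 5.6 to 101 and 44.9 (3.67 ± 0.37), and Hspa8, the constitutive form, fell from 2765 and 2988 to 1649 and 1751 (-0.76 ± 0.14, adjusted p = 0.0011).

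Not every germline copy rose. Cyct, the testis cytochrome c, fell from 217 and 199.9 to 82.4 and 91.6 (-1.25 ± 0.14, adjusted p = 3.18e-05). Pdha2, the germline subunit of pyruvate dehydrogenase, fell from 37.5 and 32.7 to 15 and 14.1 (-1.22 ± 0.26, adjusted p = 0.00308), and Rpl10l, a retrogene of Rpl10, from 268 and 305 to 145 and 181 (-0.81 ± 0.15, adjusted p = 0.00121). Cox6b2, the testis form of a cytochrome c oxidase subunit, rose from 27.9 and 35.3 to 82.7 and 75.1 (1.30 ± 0.19, adjusted p = 0.000227). The copies that fell were already at a signal of 35.1 to 468 on average at 7 dpp, and the 11 that rose by a log2 change of over 2 were at 5.3 or less. Reads of near-identical copies can be split between them by the quantification, so values of Rpl10l and Rpl39l beside their relatives are uncertain.

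**Figure D4:**
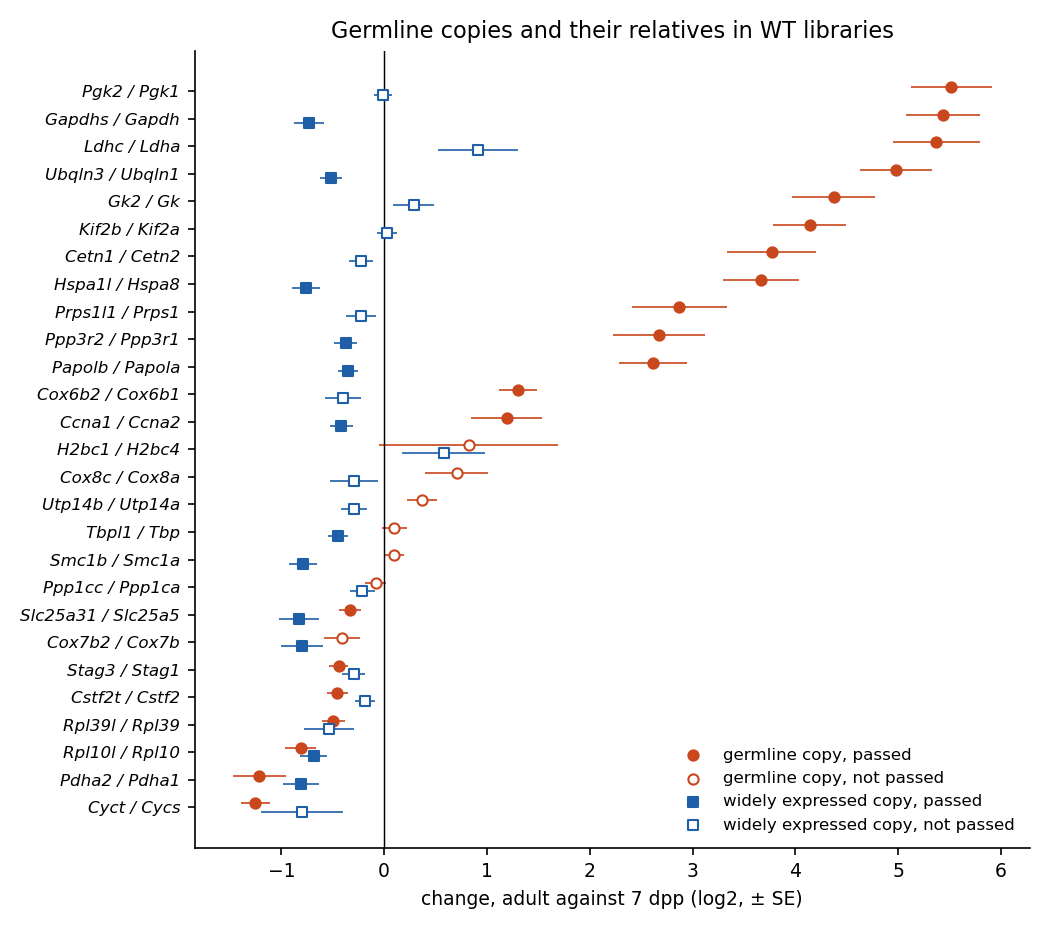
Log2 change from 7 dpp to adult WT with its SE for 27 germline copies (circles) and their widely expressed relatives (squares); filled symbols passed the threshold. The germline copies span from 5.52 (Pgk2) to -1.25 (Cyct), while no relative passed above 0.

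Markers of interstitial cells were among the largest increases. Insl3, the peptide hormone of Leydig cells, had a signal of 5.67 and 11.9 at 7 dpp and 5079 and 3517 in adults (8.83 ± 1.77, adjusted p = 0.0023). Hsd3b6, a steroid dehydrogenase of adult Leydig cells, went from 0.1 and 0.086 to 69.8 and 51.2 (5.80 ± 0.91, adjusted p = 0.000444). Of the 10 Leydig cell genes, 4 rose (40.0%, against 19.3% of all genes tested), and 8 when the fit held only the groups compared. The list's median log2 change was 2.731. It was 2.502 to 3.034 without any 1 of the 4 libraries, with fewer genes higher in each of these fits. Cyp17a1 (6.15 ± 1.62, adjusted p = 0.0111) lost its call without 7 dpp library 2 (0.0599) or adult library 7 (0.0683), and Cyp11a1 (5.38 ± 1.89, adjusted p = 0.0431) without any 1 of the 4 libraries (0.086 to 0.18), both enzymes of steroid synthesis. Star, the cholesterol carrier, had 3.26 and 3.39 against 11.4 and 17.8 without passing (adjusted p = 0.12). The summed signal of the list was 132.6 and 152.3 at 7 dpp and 5598 and 3943 in adults, mostly Insl3, and no member was at 0 in any of the 4 libraries.

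All 14 macrophage genes rose, against 19.3% of all genes tested, with a median log2 change of 4.56. The median was 4.15 to 5.20 when 1 library was left out, and not every gene passed in each of these fits. C1qa, of the complement C1q complex, went from 0.722 and 1.23 to 225 and 74.5 (6.06 ± 0.85, adjusted p = 0.000202), and Csf1r, the receptor for the macrophage growth factor, from 0.241 and 0.397 to 99.5 and 34.2 (5.50 ± 0.80, adjusted p = 0.000252). Lyz2, lysozyme, went from 3.89 and 4.02 to 467 and 144 (5.71 ± 1.21, adjusted p = 0.00314). Apoe, an apolipoprotein that macrophages and Leydig cells both make, rose from 19.8 and 17.6 to 2152 and 625 (5.88 ± 0.88, adjusted p = 0.000325). Adult library 7 was the higher in nearly all of these: the summed signal was 17.5 and 18.2 at 7 dpp and 1727 and 583 in adults, with a median ratio of library 7 to 9 of 2.964. Lcn2, an iron-binding secreted protein, rose from 0.893 and 0.075 to 392 and 247 (7.77 ± 0.92), and Agt, angiotensinogen, from 1.003 and 0.879 to 192 and 142 (6.42 ± 1.20). The part that Leydig cells or macrophages have in other changes of the adult libraries was not tested.

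Sertoli cell transcripts, present at 7 dpp, were lower in adults. Of the 25 genes tested, 17 fell and 3 rose (68.0% and 12.0%, against 13.6% and 19.3% of all genes tested), with a median log2 change of -1.91. The median was -2.155 to -1.639 when 1 library was left out, with fewer genes lower in each of these fits. Amh, anti-Müllerian hormone, made by immature Sertoli cells, fell from 101 and 91.5 to 0.983 and 0.612 (-5.76 ± 0.52, adjusted p = 5.57e-06). Aard, a Sertoli cell gene, fell from 329 and 210.4 to 30.9 and 18.9 (-3.39 ± 0.47, adjusted p = 0.000173), and Inha, the inhibin alpha subunit, from 173 and 140.4 to 19.3 and 11.4 (-3.30 ± 0.49, adjusted p = 0.00029). The defining transcription factors fell by less: Sox9 by 2.26 ± 0.43, Gata4 by 1.91 ± 0.44 and Wt1 by 1.67 ± 0.33 on the log2 scale (adjusted p = 0.00171, 0.00517 and 0.00219). The other 3 members called went the other way, of which Tsx rose from 1.77 and 2.57 to 8.36 and 6.32 (1.40 ± 0.27, adjusted p = 0.00178) without depending on 1 library. Trf, transferrin, had 10.6 and 14.3 against 63.2 and 28.2 (adjusted p = 0.00756; 0.0564 without 7 dpp library 2 and 0.108 without adult library 7). The summed signal of the list was 2114 and 1478 at 7 dpp and 684 and 404 in adults.

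Among the 15 largest decreases were further genes that Sertoli cells express: Rhox8, an X-linked homeobox gene (61.6 and 33.4 against 2.97 and 1.15), Hsd17b1, an estradiol-forming enzyme (11.2 and 9.54 against 0.198 and 0.073), and Inhbb, an activin subunit (26.4 and 19.7 against 2.68 and 1.34). Ccn1, a matricellular protein, fell from 118 and 62.3 to 1.99 and 1.11 (-5.11 ± 0.69, adjusted p = 0.00015), and Edn1, endothelin, from 28.9 and 10.4 to 0.316 and 0.31 (-3.81 ± 0.59, adjusted p = 0.000412). In each of these genes library 2 was the higher at 7 dpp and the groups did not overlap. For other somatic lists, single members moved against a sum that 1 gene can carry. The summed signal was 46.9 and 38.2 against 79.6 and 49.6 for peritubular myoid genes, 48.3 and 58.4 against 48.4 and 45.5 for stromal genes, 35.6 and 46.5 against 43.1 and 46.0 for endothelial genes and 11.4 and 3.4 against 12.7 and 3.1 for erythroid genes. Of the stromal genes, Col1a1, a fibrillar collagen, held most of the sum (26.5 and 34.5 against 26.7 and 34.3). Col3a1, another fibrillar collagen, fell from 5.85 and 6.97 to 0.604 and 0.429 (-2.29 ± 0.63, adjusted p = 0.0134; 0.0476 without 7 dpp library 2 and 0.0608 to 0.0695 without each of the others). Col1a2 went from 4.65 and 4.54 to 0.622 and 0.374 (adjusted p = 0.045; 0.127 to 0.152 without any 1 of the 4 libraries). Within the peritubular list Actg2, a smooth muscle actin, rose from 0.351 and 0.332 to 45.9 and 21.7 (4.60 ± 0.46, adjusted p = 1.26e-05), whereas Acta2, the usual marker of these cells, had 4.27 and 5.51 against 1.05 and 0.283 (adjusted p = 0.043, lost without any 1 of the 4 libraries, 0.0841 to 0.197).

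Most ribosomal protein genes were lower in adults. Of 82 cytosolic ribosomal protein genes tested, 67 fell and 0 rose (limma, 81.7% and 0.0%, against 13.6% and 19.3% of all genes tested). The median log2 change was -0.65 against 0.035 over all genes. Rpsa, of the small subunit, fell from 2095 and 2481 to 874 and 1016 (-1.27 ± 0.13, adjusted p = 2.07e-05), and Rpl3, of the large subunit, from 1025 and 1113 to 571 and 643 (-0.82 ± 0.11). The median was -0.45 after rescaling to equal totals (57 fell, 1 rose, all genes 0.208) and -0.26 with quantile normalization (35 fell, 2 rose, all genes -0.112); it stayed below that of all genes in each, and 35 fell without adult library 7 and 43 without 7 dpp library 3. The list held 13.4% and 14.9% of the signal at 7 dpp and 9.95% and 11.1% in adults. Ribosomal protein genes have many processed copies in the genome, and single values can be split among them. Of 86 oxidative phosphorylation genes, 30 fell (34.9%), 1 rose (1.16%) and 55 did not pass, against 13.6% lower and 19.3% higher of all genes tested. The list's median was -0.29. It was -0.33 to -0.27 without any 1 of the 4 libraries, with fewer genes lower in each of these fits. After rescaling it was -0.10 and 13 fell. With quantile normalization 14 fell and the list's median, -0.08, was no longer below that of all genes (-0.112), so the shift depended on the scaling. Uqcrb, of complex III, fell from 750.4 and 919 to 455 and 513 (-0.78 ± 0.13, adjusted p = 0.000601).

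Of 20 somatic glycolysis genes, 9 fell and 1 rose (45.0% and 5.0%, against 13.6% and 19.3% of all genes tested). After rescaling 6 fell and 4 rose. The list's median log2 change was -0.28. It was -0.30 to -0.23 without any 1 of the 4 libraries, with fewer genes lower in each of these fits. After rescaling it was -0.11 (all genes 0.208) and with quantile normalization -0.19 (all genes -0.112). Pkm, pyruvate kinase, fell from 612 and 750.0 to 268 and 295 (-1.26 ± 0.21, adjusted p = 0.000602), and Eno1, enolase, by 0.94 ± 0.15 on the log2 scale. Hk1, hexokinase 1, which has a sperm form, rose from 53.7 and 68.6 to 177 and 124 (1.28 ± 0.21, adjusted p = 0.000703). In the sterol and fatty acid list 14 of 28 fell and 4 rose (50.0% and 14.3%). After rescaling 12 fell and 5 rose. The list's median was -0.41, and -0.22 and -0.37 under the same 2 scalings. Without any 1 of the 4 libraries the median was -0.50 to -0.34, with fewer genes higher in each of these fits and a varying number lower. Msmo1, an enzyme of sterol synthesis, fell from 107 and 122 to 38.2 and 42.5 (-1.49 ± 0.23, adjusted p = 0.000389). Insig1, the sterol sensor partner of the SREBP pathway, fell by 0.76 ± 0.15 on the log2 scale.

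In the cell cycle list 9 of 51 genes were higher and 14 lower (17.6% and 27.5%, against 19.3% and 13.6% of all genes tested). E2f2, an S phase transcription factor, rose from 3.17 and 2.5 to 12.5 and 10.3 (1.69 ± 0.26, adjusted p = 0.000368), and Ccne1 and Ccne2, the E cyclins, rose by 0.61 ± 0.12 and 0.88 ± 0.17. Cdk4, a kinase of G1, fell from 268 and 345 to 154 and 182 (-0.86 ± 0.14, adjusted p = 0.000633), and Ccnb1, cyclin B1, from 260.1 and 254 to 153 and 161 (-0.70 ± 0.12, adjusted p = 0.000771). Mki67, the proliferation marker, had 86.3 and 68.8 against 102 and 80.8, which overlap (adjusted p = 0.239). Without 1 library the list held 4 to 7 higher and 3 to 8 lower genes, the fewest without adult library 7, and after rescaling 12 and 6. In the mTOR list, which contains the target of the null allele, 4 of 34 rose and 6 fell, shares of 11.8% and 17.6% that are near those of all genes (11 and 2 after rescaling; 3 and 2 without adult library 7; 4 and 2 without 7 dpp library 3). Of its single members, Ulk1, an autophagy kinase, rose from 53.3 and 52.4 to 83.6 and 82.5 (0.64 ± 0.10, adjusted p = 0.000322), Mtor itself by 0.46 ± 0.09 and Tsc2, its inhibitor, by 0.38 ± 0.08. Rraga, a GTPase of amino acid sensing, fell by 0.70 ± 0.15 (adjusted p = 0.00409).

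The piRNA pathway, which silences transposons in germ cells, had 10 lower and 2 higher genes of 24 (41.7% and 8.33%). Of all genes tested 13.6% were lower and 19.3% higher. After rescaling 5 piRNA genes were lower and 4 higher. The list's median log2 change was -0.25. It was -0.34 to -0.09 without any 1 of the 4 libraries, with fewer genes lower in each of these fits. After rescaling it was -0.06 (all genes 0.208), and with quantile normalization -0.13, near the -0.112 of all genes. Mael fell from 774 and 831 to 494 and 545 (-0.63 ± 0.11, adjusted p = 0.001), Gtsf1, a partner of PIWI proteins, from 239.6 and 243 to 134 and 144 (-0.79 ± 0.12), and Ddx4 by 0.50 ± 0.10 (adjusted p = 0.00193). Tdrd6, a Tudor protein of the spermatid chromatoid body, rose from 0.331 and 0.472 to 11.8 and 8.63 (2.99 ± 0.44, adjusted p = 0.000281). Polycomb genes were called in both directions, 4 higher and 4 lower of 30 (13.3% each, near or under the shares of all genes). After rescaling 9 were higher and 2 lower. The list's median was -0.021 to 0.011 without any 1 of the 4 libraries, and the number of calls varied. Scml2, the germline Polycomb gene, was lower (293 and 279 against 196 and 210.0, log2 change -0.49 ± 0.09, limma adjusted p = 0.00138). Of 15 DNA methylation genes 1 rose, Tet3 (adjusted p = 0.0259, lost without 7 dpp library 3, 0.151, adult library 7, 0.166, or adult library 9, 0.0518). Of 36 replication-dependent histone genes 4 rose and 3 fell (11.1% and 8.33%, under the shares of all genes), and 2 and 8 with quantile normalization. The list's median was -0.09 without adult library 7 and 0.07 without adult library 9, with fewer genes called in each. These near-identical genes lack poly(A) tails and are uncertain in such libraries. Among 23 immediate early and dissociation stress genes 6 rose and 1 fell (26.1% and 4.35%, against 19.3% and 13.6% of all genes). Their median log2 change was 0.418 to 0.555 without any 1 of the 4 libraries, and fewer rose in each of these fits. Zfp36, an mRNA decay factor, rose from 24.5 and 25.5 to 125 and 75.6 (1.92 ± 0.39, limma adjusted p = 0.0026).

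X-linked genes were lower more often than autosomal ones, a grouping made after the values had been seen. Of 600 X-linked genes tested, 176 (29.3%) fell and 64 (10.7%) rose, against 14.0% and 20.4% of 13588 autosomal genes, and the share that fell ran from 9.3% to 20.5% over the autosomes. The median log2 change was -0.23 on the X and 0.038 on the autosomes. Rescaling moved these to -0.06 and 0.21 (122 X-linked genes fell and 82 rose) and quantile normalization to -0.46 and -0.08, so that the X stayed below the autosomes under both; when 1 library was left out, 102 X-linked genes fell and 38 rose without adult library 7, and 119 to 127 fell and 53 to 60 rose without each of the others. Smc1a, a cohesin subunit, fell from 49.8 and 44.4 to 28.2 and 25.4 (-0.79 ± 0.14, adjusted p = 0.000789), and X-linked Rpl10 from 588 and 613 to 382 and 364 (-0.69 ± 0.13, adjusted p = 0.00147). Esx1, Akap4 and other late germ cell genes of the X went the opposite way, as given above.

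**Figure D5:**
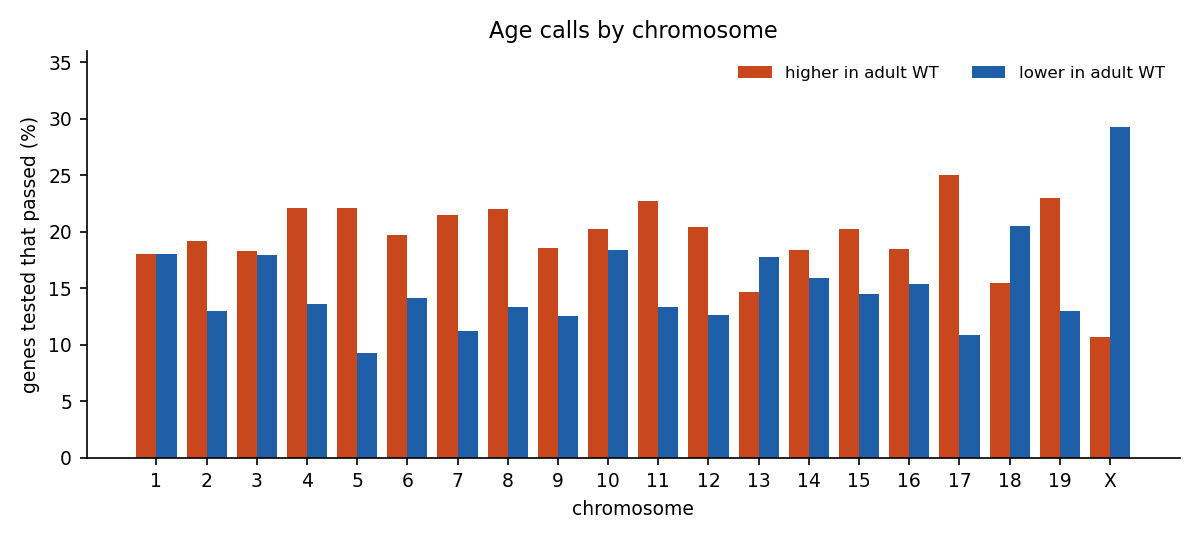
Percent of the tested genes on each chromosome (x axis) that were higher (orange) or lower (blue) in adult than in 7 dpp WT libraries. On the X 29.3% were lower and 10.7% higher, while on the autosomes the share that was lower lay between 9.3% and 20.5%.

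The same contrast in Akt1s1 null libraries, which have no library in common with WT, called 3854 genes higher (23.7%) and 3597 lower (22.2%). Both contrasts came from the same fit with a shared spread for each gene, and the genes were those filtered on the 4 WT libraries. The calls of the 2 genotypes are therefore not independent. Of the genes higher in WT, 2398 were also higher in KO (76.7% of the WT and 62.2% of the KO list), and of the genes lower in WT 1740 were also lower in KO (78.7% and 48.4%). The difference between the 2 age changes was tested gene by gene: 0 genes passed in either direction (0.0%; limma, 2129 at an unadjusted p under 0.05). In KO, 26 of 26 elongating spermatid genes were higher (median 4.60) and 20 of 25 Sertoli cell genes lower. Of 28 undifferentiated spermatogonia genes 21 fell in KO and 4 in WT (median log2 changes -1.09 and -0.37), and of 23 immediate early genes 12 fell in KO and 1 in WT; the difference itself did not pass for any of them. Zbtb16 was at 106 to 141 at 7 dpp and 55.9 to 66.2 in adults in KO (-0.99, adjusted p = 0.000136), and its difference between the age changes was -0.86 ± 0.23 (adjusted p = 0.204). Elongating spermatid, Leydig cell and macrophage sums differed among the adult libraries: 14978, 5598 and 1727 in WT library 7, 6956, 3943 and 583 in WT library 9, 6851, 3033 and 589 in KO library 10, 3310, 1330 and 232 in KO library 12 and 3306, 149 and 84.7 in KO library 11. WT library 7 was the highest in all 3 sums and KO library 11 the lowest, with a Leydig cell sum inside the range of the 7 dpp libraries (132.6 to 279.9) and an elongating spermatid sum above theirs (107.2 to 126.3).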

How the data were processed

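RNA of sorted OCT4-GFP+ testis cells was sequenced from poly(A) libraries; Trim Galore, kallisto, DESeq2 and build mm10 are named in the submitters' processing notes, and neither versions nor order are stated there. The deposited signal is 1 column per library: after division by 1 factor per column, low values are whole multiples of 0.01 (largest deviation 0.00055), as in TPM, so the depth is unknown and no counting interval is given. The design had allowed for counts; because the signal is not a count, limma (version 3.58.1, R 4.3.3) was run on log2(signal + 1), with a mean-variance trend, a mean for each of the 6 groups over all 15 libraries (9 residual degrees of freedom, prior 4.22) and Benjamini-Hochberg adjustment over 16232 genes, threshold 0.05. Changes of low genes are understated on this scale; ± in the text is the SE of the fit. The script was tested on simulated data with 200 changed genes. Members, the 29 gene lists, the 28 gene pairs and the motifs were chosen with earlier results of these data known. Genes were named by a rule: Pou5f1, Akt1s1, the 15 highest and 15 lowest changes with a mean signal of at least 5 and no overlap, the 10 most abundant of the higher, up to 6 members of each list by smallest p (whole lists of 12 or fewer) and the pairs; Zbtb16, Gfra1, Sycp3, Sycp1, Dmc1, Sox9, Wt1, Gata4, Lyz2, Spata3, Crem, Mki67, Tsx and Trf were chosen after their values were seen. Of the names, 15697 were current symbols, 5026 were matched as synonyms in RefSeq (GRCm38.p6), 6405 were not matched and 22 had been turned into dates. Alternatives were other pseudocounts, filters, scalings and fits, and each library left out.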

Additional observations from a re-analysis of the deposited data

Results flagged for a closer look

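In 4 named genes that were flagged, the age change ran one way in one genotype and the opposite way in the other. Further named genes that were not flagged also had changes of opposite sign, such as Akr1cl (log2 change 1.73 in WT and -0.83 in KO). The libraries are not paired across ages, so these are differences between groups. In none of the 4 genes did the test of the difference between the age changes pass. Cdh5, an endothelial cadherin, was at 2.1 and 2.67 at 7 dpp and 3.7 and 4.81 in adult WT (log2 change 0.633), and at 4.37 to 4.99 and 1.92 to 3.82 in KO (adjusted p of the difference 0.319). Prps1, an X-linked enzyme of nucleotide synthesis, had a log2 change of -0.226 in WT and 0.22 in KO (adjusted p of the difference 0.344). H2bc4, a histone gene with near-identical copies, had a log2 change of 0.579 in WT and -1.13 in KO (adjusted p of the difference 0.245). Sycp3 had a log2 change of -0.158 in WT and 0.21 in KO (adjusted p of the difference 0.401).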

How the results depend on the processing

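Depth is unknown, and 2 libraries in each group limit every call. No paired analysis was possible because the groups share no replicate numbers. The number of genes lower in adult WT moved from 2211 to 1175 after rescaling to equal totals and to 3601 with quantile normalization; with 1 library left out, 1707 to 2392 genes were higher and 917 to 1617 lower. For the difference between the age changes, 1 gene was lower with a pseudocount of 0.1 and 4 without a filter on low values; with 1 library left out 0 to 2 were higher and 0 to 55 lower, the 55 without 7 dpp KO library 4. The cause was not tested. Of the 266 named genes, the calls lost numbered 45 without adult library 7, 30 without 7 dpp library 3, 27 without 7 dpp library 2, 24 without adult library 9, 19 with quantile normalization and 12 after rescaling, and 0 to 8 under each of the other settings. Ppp1cc, which did not pass (-0.08), was higher with quantile normalization (0.211, adjusted p = 0.0257).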

Other observations

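A small number of the 16232 genes tested were called in opposite directions with age in the 2 genotypes. In WT 14 of them rose that fell in KO, and 3 fell that rose in KO. The difference between the age changes passed for none of the genes tested. Tktl2, a transketolase-like gene, was at 27.4 and 30.9 at 7 dpp and 16.1 and 16.7 in adult WT, against 1.01 to 1.54 and 1.96 to 3.8 in KO. Ndufb7, of complex I, was at 427 and 490.0 and then 333 and 341 in WT, and at 183 to 219 and 217 to 238 in KO. Socs3, an inhibitor of cytokine signalling, was at 12.0 and 13.6 and then 23.7 and 24.2 in WT, against 18.5 to 35.5 and 14 to 19.6 in KO. These 3 were chosen after their values were seen. Most of the WT calls in this group, among them those of Tktl2 and Socs3, were lost in some fits with 1 library left out. The WT call of Tktl2 was also lost after rescaling (limma, adjusted p = 0.0571), and that of Ndufb7 with quantile normalization (0.143).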
